A study of Mus musculus with 30 samples.

Results

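AP-1 is a family of dimeric transcription factors, and 8 genes that encode its subunits (Fos, Fosb, Fosl1, Fosl2, Jun, Junb, Jund and Atf3) are described here in dividing mouse myoblasts sorted by cell cycle phase. The members were chosen by gene symbol, with earlier results of these data known, and all 8 were found among the 46078 genes of the count table. C2C12 is an established mouse myoblast line, a muscle precursor that divides in rich medium and fuses into myotubes when serum is withdrawn. The study grew these cells in 20% fetal bovine serum, stained them for 15 minutes with a Hoechst DNA dye after trypsin and used a cell sorter to collect cells in G1, in S or in G2/M. No genotype or treatment beyond this separated the groups, so all fractions share the line, the growing state, the trypsin and the dye. RNA-seq gave 2 columns of fragment counts for each of the 3 phases, 6 in all. In the labels only S has a lot mark in its titles, so a difference of lot and one of phase cannot be told apart wherever S is compared. The titles call the columns of a phase replicate 1 and replicate 2, and nothing in the labels says whether they came from separate cultures.

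Subunits of the Fos and Jun families meet through leucine zippers. Jun proteins can pair with each other or with a Fos protein, while Fos proteins need a Jun partner to bind DNA stably. The dimers bind the palindrome TGANTCA, and ATF subunits such as Atf3 favour the longer TGACGTCA. Fos, Fosb, Jun and Junb are classical immediate early genes, switched on by serum and growth factor signals through ERK, JNK and p38 kinases and shut off again within a short time. Fosl1 and Fosl2 (Fra-1 and Fra-2) are induced later and persist in growing cells, Jund is produced steadily in most tissues, and Atf3 answers to stress. In muscle precursors, Jun is known as an inhibitor of the muscle factor MyoD.

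Promoter stretches are shown for the 2 immediate early members whose RNA was highest in S (Fos and Fosb), for the immediate early member clearly lower in S (Junb) and for a member of level RNA (Jun). Each stretch is the 120 bases before the start site in RefSeq, build GRCm38.p6, read 5′ to 3′ on the gene's strand. Capitals mark matches to TGACG, the shared core of ATF and CREB sites, to TGACATCA, the variant AP-1 site known from the human JUN promoter, and to TATAAA.
Fos, chr12:85473770-85473889, plus strand: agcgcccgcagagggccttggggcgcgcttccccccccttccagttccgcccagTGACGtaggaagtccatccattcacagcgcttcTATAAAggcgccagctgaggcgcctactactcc
Fosb, chr7:19310046-19310165, minus strand: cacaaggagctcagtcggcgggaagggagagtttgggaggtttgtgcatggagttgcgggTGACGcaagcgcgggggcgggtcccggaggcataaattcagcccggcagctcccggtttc
Junb, chr8:84978749-84978868, minus strand: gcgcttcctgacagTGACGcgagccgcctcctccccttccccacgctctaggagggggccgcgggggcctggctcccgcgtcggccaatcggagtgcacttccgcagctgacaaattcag
Jun, chr4:95052223-95052342, minus strand: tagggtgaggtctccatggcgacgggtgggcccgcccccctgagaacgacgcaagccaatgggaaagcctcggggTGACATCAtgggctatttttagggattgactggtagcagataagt

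Over the 250 bases before the start, searched on both strands, TGACG was found in 4 of the 7 members with an entry in the RefSeq promoter table (Fos, Fosb, Junb and Atf3) and in 17.7% of all 32817 promoter windows. Fos holds it at -129 and -66, Fosb at -60 and Junb at -106, counted from the start site. TGACATCA was found in Jun, at -45, and in 2.93% of windows. The full TGACGTCA, which contains TGACG on both strands, was in 0 of the 7 windows and in 1.55% of all, and TGANTCA was in 0 of the 7 and in 6.75% of all. TATAAA was found in Fos, at -33, and in 12.4% of windows. The CArG box, to which serum response factor binds, was in 0 of the 7 windows and in 1.47% of all. Sites further upstream than 250 bases were not searched, so a 0 here does not show that a promoter lacks the site. Fos and Fosb, highest in S, and Junb, lowest in S, thus share the TGACG core within these windows, and so does Atf3, highest in G1. The Atf3 window lies inside the counted gene, with its last 120 bases at 191183334 to 191183453 in a minus-strand gene that spans 191170296 to 191218039. That of Fosl2 lies inside its gene too. The counts do not show which start site was used. A match is a string of letters, and these data do not show whether a factor binds there.

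Each column held between 16109055 and 18103769 assigned fragments. The pair of columns of a phase differed by about as much as counting alone gives, with a chi-square over its degrees of freedom of 1.00 for the G1 pair, 1.03 for the S pair and 1.15 for the G2/M pair (1.04 without the gene model Gm17082). The S and G2/M pairs still differed slightly beyond counting (p = 0.0109 and 3.11e-28 by chi-square, and 0.00229 in G2/M without Gm17082). From this closeness, and from the marks L1 and L2 in the labels, the columns were treated as 1 library per phase and summed. They are titled as replicates, and the labels do not state this choice. No difference between phases is therefore tested here. All intervals are 95% intervals for counting error only. With the columns of a phase taken as 1 library, the positions of single columns given below do not stand for agreement between replicates. Nor do results with 1 column left out. Of the 10 G2/M markers, 8 passed 2-fold upward for G2/M over G1 (10.03% of all genes), and of the 10 G1/S markers 8 passed it downward (9.81%). For S over G1, 5 of the G2/M markers passed it upward (8.63% of all genes) and 7 of the G1/S markers downward (8.59%). For G2/M over S, 4 of the G2/M markers and 2 of the G1/S markers passed it upward (7.12% of all genes). No list of markers for S alone was used, so the purity of the S fraction was not tested. Of 8 myoblast markers 5 reached 10 CPM (the fragments of a gene scaled to a common library total), among them Myf5 and Des, while Myod1 stood at 6.64, 6.08 and 5.73 CPM in G1, S and G2/M. Pax7 had 0, 0 and 119 fragments in G1, S and G2/M, and Myog 80, 0 and 42. Myf5 stood at 66.0, 126.1 and 127.9 CPM in the same order. Of 23 markers of other cell types, 14 were at 0 fragments in G1, likewise 14 in S, and 17 in G2/M. Among those at 0 in all 3 were Ptprc, Epcam, Adipoq and Snap25. The 23 markers summed to 1413, 1293 and 1600 CPM in G1, S and G2/M, carried by Acta2, Krt14, Tubb3, Runx2 and Pparg. Of these, Krt14, Tubb3 and Pparg were listed for the same cell types as Epcam, Snap25 and Adipoq. The part of this summed level in the results below was not tested.

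Jund was the most abundant AP-1 RNA of these myoblasts in every phase, and Jun was second. Levels between genes were compared per kilobase of exon. Jund stood at 218.1, 202.9 and 165.4 CPM per kilobase in G1, S and G2/M, and Jun at 33.4, 32.3 and 31.5 CPM per kilobase. Below them the order differed by phase. In G1 the third place was Junb's at 25.7 CPM per kilobase, and in S and G2/M it was Fosl1's at 18.8 and 26.2. Fosl1 and Junb, at 26.2 and 25.7 CPM per kilobase in G2/M, had overlapping counting intervals, as did Atf3 and Fosl2 in G1 at 11.3 and 10.4, and Fosb and Fos in G1 at 1.43 and 1.22. All other neighbours in the order of a phase had intervals apart. Fos and Fosb were the lowest in each phase, at most 4.54 CPM per kilobase for Fos, in S. A CPM value is a share of the library's RNA, so in a sorted population fewer cells that express a gene and less RNA per cell cannot be told apart.

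**Figure D1:**
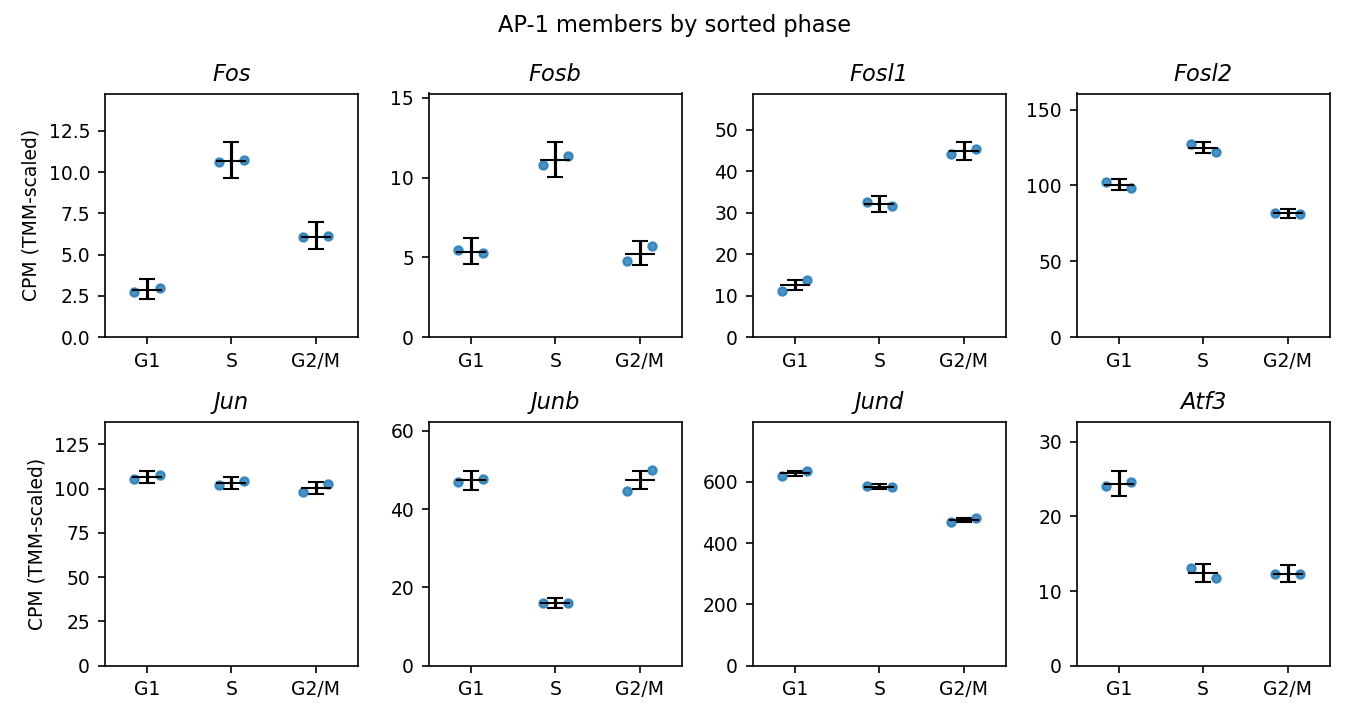
Level of each AP-1 member in CPM (scaled with TMM factors, axis from 0) by sorted phase in G1, S and G2/M order. Blue points are the 2 columns of a phase, black dashes their sum as 1 library, and bars its exact 95% Poisson interval. Fos and Fosb are highest in S, Junb is lowest in S, Fosl1 is highest in G2/M, and Jun is nearly level.

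Among the Fos genes, Fosl1 was low in G1 and higher in both later fractions. Fosl1 (ENSMUSG00000024912, chromosome 19 from 5447703 to 5455945 in GRCm38) encodes a Fos protein without a strong activation domain of its own that accumulates in growing cells. Its columns held 178 and 222 fragments in G1, 579 and 569 in S, and 796 and 828 in G2/M. No column of a phase overlapped those of another. Its level was 32.0 CPM in S, against 12.5 CPM in G1, 2.57-fold higher (log2 ratio 1.36, interval 1.20 to 1.53). In G2/M and S it stood at 44.8 and 32.0 CPM (log2 ratio 0.48, interval 0.37 to 0.59). Between G2/M and G1 it was 3.59-fold higher (log2 ratio 1.84, interval 1.68 to 2.00).

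Fos and Fosb were both highest in S, at a low level. Fos (ENSMUSG00000021250, chromosome 12 from 85473890 to 85477273) is the founding member of the family and an unstable immediate early RNA. It had 44 and 48 fragments in G1, 189 and 194 in S, and 109 and 112 in G2/M. The S columns were the highest and the G1 columns the lowest, with no overlap. Fos stood at 10.7 CPM in S, against 2.87 CPM in G1, 3.72-fold higher (log2 ratio 1.90, interval 1.57 to 2.24). In G2/M it stood at 6.09 CPM, a log2 ratio over S of -0.81 with an interval of -1.06 to -0.57. Over G1, G2/M was 2.12-fold higher (log2 ratio 1.09, interval 0.73 to 1.45), with both levels under 10 CPM, so Fos like Fosl1 had a higher level in both later fractions than in G1.

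Fosb (ENSMUSG00000003545, chromosome 7 from 19302721 to 19310045), a close relative of Fos with a long and a truncated protein form, had 87 and 85 fragments in G1, 192 and 205 in S, and 86 and 104 in G2/M. Its G1 and G2/M columns overlapped, and both S columns lay above them. It stood at 11.1 CPM in S, against 5.36 CPM in G1, 2.07-fold higher (log2 ratio 1.05, interval 0.78 to 1.31). In G2/M, against S, it stood at 5.24 and 11.1 CPM, 2.11-fold lower (log2 ratio -1.08, interval -1.34 to -0.83). The G2/M to G1 ratio was -0.03 on the log2 scale, with an interval of -0.34 to 0.27 that includes 0. Neither Fos nor Fosb reached 10 CPM in G1 or G2/M.

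Fosl2 differed less. Fosl2 (ENSMUSG00000029135, chromosome 5 from 32135801 to 32157842), the second Fra gene, had 1635 and 1586 fragments in G1, 2264 and 2207 in S, and 1473 and 1485 in G2/M. The S columns were the highest and the G2/M columns the lowest. It stood at 124.8 CPM in S, against 100.5 CPM in G1, a log2 ratio of 0.31 (interval 0.25 to 0.38), and at 81.6 CPM in G2/M, a log2 ratio over S of -0.61 (interval -0.68 to -0.55). These differences exceed counting error and stay under 2-fold.

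The Jun genes went different ways. Junb (ENSMUSG00000052837, chromosome 8 from 84976909 to 84978748), a Jun protein that activates more weakly than Jun and is known to restrain the cell cycle in mouse fibroblasts, was low in S. Its columns held 748 and 771 fragments in G1, 285 and 287 in S, and 802 and 916 in G2/M. Both S columns lay far below the other 4, while the G1 and G2/M columns were close. Junb stood at 16.0 CPM in S, against 47.4 CPM in G1, 2.97-fold lower (log2 ratio -1.57, interval -1.71 to -1.43). In G2/M it stood at 47.4 CPM and in S at 16.0 CPM, 2.97-fold higher (log2 ratio 1.57, interval 1.43 to 1.71). The G2/M to G1 ratio was 0.00 on the log2 scale, with an interval of -0.10 to 0.10. Both differences rest on the same S library.

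Jun was level across the phases. Jun (ENSMUSG00000052684, chromosome 4 from 95049034 to 95052222), the strongest activator among the Jun proteins and a promoter of G1 progression, had 1681 and 1732 fragments in G1, 1812 and 1879 in S, and 1761 and 1877 in G2/M. Scaled, it stood at 106.5, 103.0 and 100.3 CPM in G1, S and G2/M. The intervals of its log2 ratios were -0.12 to 0.02 for S over G1 and -0.10 to 0.03 for G2/M over S. They include 0 and lie far inside a 2-fold difference. For G2/M over G1 the interval of -0.15 to -0.02 does not include 0, around a log2 ratio of -0.09.

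Jund (ENSMUSG00000071076, chromosome 8 from 70697739 to 70700616), the Jun protein of resting and steadily growing cells, had 9888 and 10234 fragments in G1, 10427 and 10500 in S, and 8444 and 8819 in G2/M. It stood at 627.6, 584.0 and 476.0 CPM in G1, S and G2/M. The differences exceed counting error and are small. The log2 ratio was -0.10 for S over G1 (interval -0.13 to -0.08), -0.30 for G2/M over S (interval -0.32 to -0.27) and -0.40 for G2/M over G1 (interval -0.43 to -0.37). The deposited annotation gives Jun, Junb and Jund 1 exon block each. Of the exon bases of Jund 543 (18.9%) are shared with the antisense gene model Gm11175, and of those of Jun 232 (7.28%) with the antisense gene Junos. Gm11175 had 0 fragments in all 3 libraries and Junos 7, 4 and 0 in G1, S and G2/M. Without a stated strand setting, fragments in these bases cannot be assigned to a gene with certainty, and the exons of the other 6 members are shared with no gene.

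Atf3, the stress-induced partner of Jun proteins, was highest in G1. Atf3 (ENSMUSG00000026628, chromosome 1 from 191170296 to 191218039) had 384 and 397 fragments in G1, 232 and 212 in S, and 220 and 225 in G2/M. The G1 columns lay above all others, and those of S and G2/M overlapped. It stood at 12.4 CPM in S, against 24.4 CPM in G1, a log2 ratio of -0.98 (interval -1.15 to -0.81), and at 12.3 CPM in G2/M, a log2 ratio over G1 of -0.99 (interval -1.16 to -0.82). At 1.97-fold and 1.99-fold lower, Atf3 lay just outside the 2-fold threshold, as Fosb at 2.07-fold higher in S over G1 lay just inside it.

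A member was counted as different when its ratio passed 2-fold and its level was 10 CPM or higher in 1 phase of the pair. Between S and G1, 3 of the 8 members (Fos, Fosb and Fosl1) were at least 2-fold higher, where 8.63% of 8773 genes were, and 1 (Junb) at least 2-fold lower, where 8.59% were. Between G2/M and S, 1 of 8 (Junb) was at least 2-fold higher, against 7.12% of 8752 genes, and 1 (Fosb) at least 2-fold lower, against 6.60%. Between G2/M and G1, 1 of the 6 members that reached the minimum (Fosl1) was at least 2-fold higher, against 10.03% of 8850 genes, and 0 at least 2-fold lower, against 9.81%. The members' median log2 ratio was 0.13 for S over G1, -0.17 for G2/M over S and -0.19 for G2/M over G1, where all genes had -0.01, 0.01 and 0.00. Fos passed the minimum through S alone and Fosb likewise, so neither could be counted without its high level there, and both S comparisons share the S library. Leaving out 1 column changed some of these counts: without column 1 of S, Atf3 was also at least 2-fold lower in S than in G1, and without column 1 of G1 or column 2 of G2/M it was at least 2-fold lower in G2/M than in G1. Without column 1 of G2/M, Fosb was no longer 2-fold lower in G2/M than in S.

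How wide genes of like level spread between these libraries differs with that level. Among the 2568 genes with a mean of 5 to 20 CPM, where Fos, Fosb and Atf3 lie, the share that differed 2-fold or more in S over G1 was 39.9%, and the log2 ratios had a robust SD (from the median absolute deviation) of 1.17. The Fosb and Atf3 ratios lay inside 1 such SD of that range's median, and that of Fos at 1.90 outside. Among the 2587 genes of 20 to 50 CPM, with Fosl1 and Junb, 9.12% were at least 2-fold higher and 8.04% at least 2-fold lower in S, and the robust SD was 0.73. Junb at -1.57 lay beyond 2 such SDs from the median and Fosl1 at 1.36 did not. Between G2/M and S, 6.53% of these genes were at least 2-fold higher, with a robust SD of 0.65, and Junb at 1.57 again lay beyond 2 SDs. Between G2/M and G1, 10.2% of them were at least 2-fold higher, with a robust SD of 0.76, and Fosl1 at 1.84 lay beyond 2 SDs. Fosl2 and Jun fall among the 3178 genes of 50 to 200 CPM, where 6.58% differed 2-fold between S and G1 and 2.96% between G2/M and S.

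**Figure D2:**
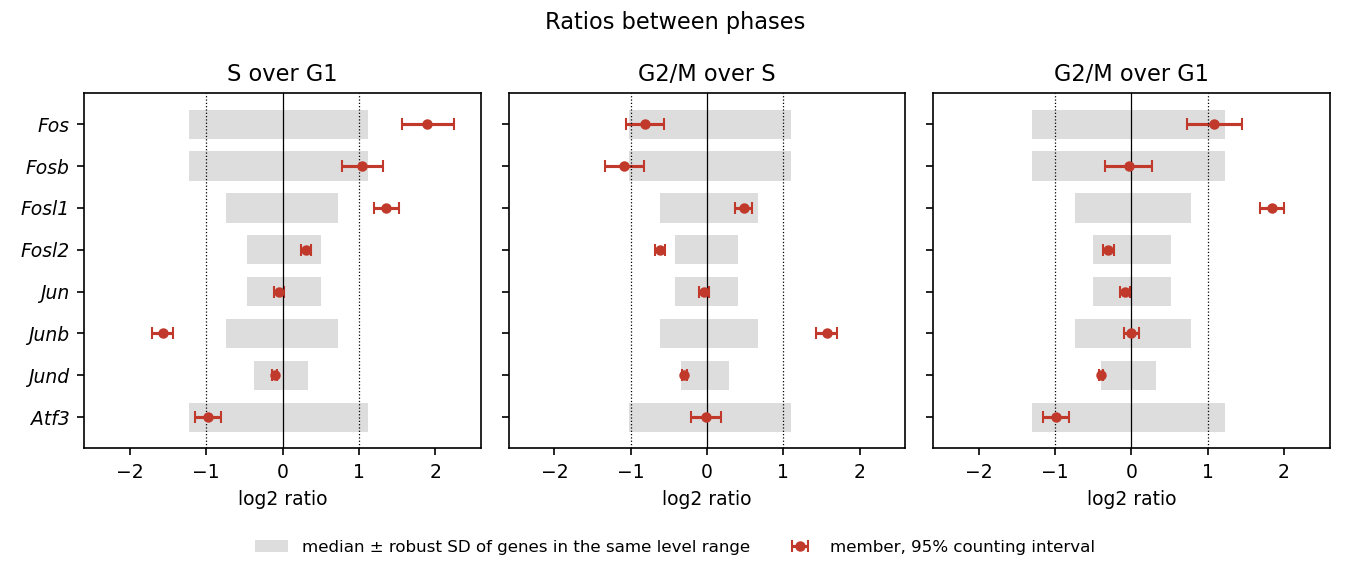
Log2 ratio of each member (red point, with its 95% counting interval) for S over G1, G2/M over S and G2/M over G1. Grey bars run 1 robust SD to each side of the median ratio of genes in the member's level range, and dotted lines mark 2-fold. Junb lies outside its grey bar in both comparisons with S and inside it for G2/M over G1, and Fosl1 lies outside in both comparisons with G1. Fos (S over G1), Fosb and Fosl2 (G2/M over S) and Jund (G2/M over G1) also lie outside theirs.

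**Figure D3:**
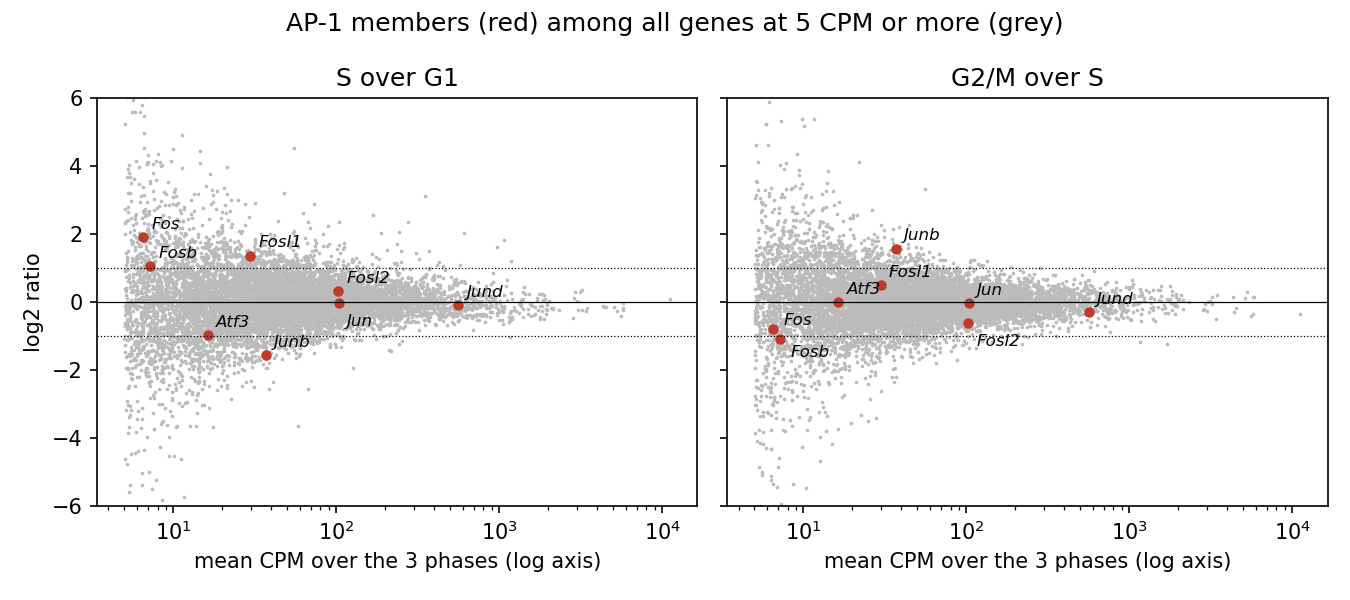
Log2 ratio against mean CPM (log axis) for genes averaging 5 CPM or higher (grey; genes beyond 6 on the log2 scale are off the axis), with the AP-1 members in red. The spread of the grey points narrows toward high levels, so that the 2-fold lines (dotted) hold fewer genes outside them near Jun and Jund than near Fos and Fosb.

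The make-up of the Fos and Jun family RNA differed between phases. With division by length the leading Fos RNA differed too, while Jund led the Jun family throughout. Per kilobase of exon, Fosl2 made up 51.0% ± 1.10 (counting SE) of the Fos family sum in G1, 32.9% ± 0.616 in S, then 21.8% ± 0.496 in G2/M. Fosl1 made up 35.9% ± 1.23 in G1, 47.9% ± 0.844 in S, then 67.9% ± 0.702 in G2/M. The leading Fos RNA was thus Fosl2 in G1 and Fosl1 in S and G2/M. Fos made up 6.0%, 11.6% and 6.70%, and Fosb 7.03%, 7.54% and 3.61%, in the same order of phases. The summed Fos family stood at 20.3, 39.2 and 38.6 CPM per kilobase in G1, S and G2/M.

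This order rests on the exon length of the annotation, which is 9680 bases for Fosl2 and 1707 for Fosl1. Without division by length, Fosl2 led in every phase, with 82.9%, 69.9% and 59.2% of the family's CPM against 10.3%, 17.9% and 32.5% for Fosl1. In both ways of counting, the Fosl1 share was lowest in G1 and highest in G2/M. In the Jun family, Jund made up 78.7% ± 0.275, 83.2% ± 0.240 and 74.3% ± 0.307 per kilobase in G1, S and G2/M, and Junb 9.29%, 3.56% and 11.6%. The Jun family sum was 277.2, 243.9 and 222.6 CPM per kilobase.

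**Figure D4:**
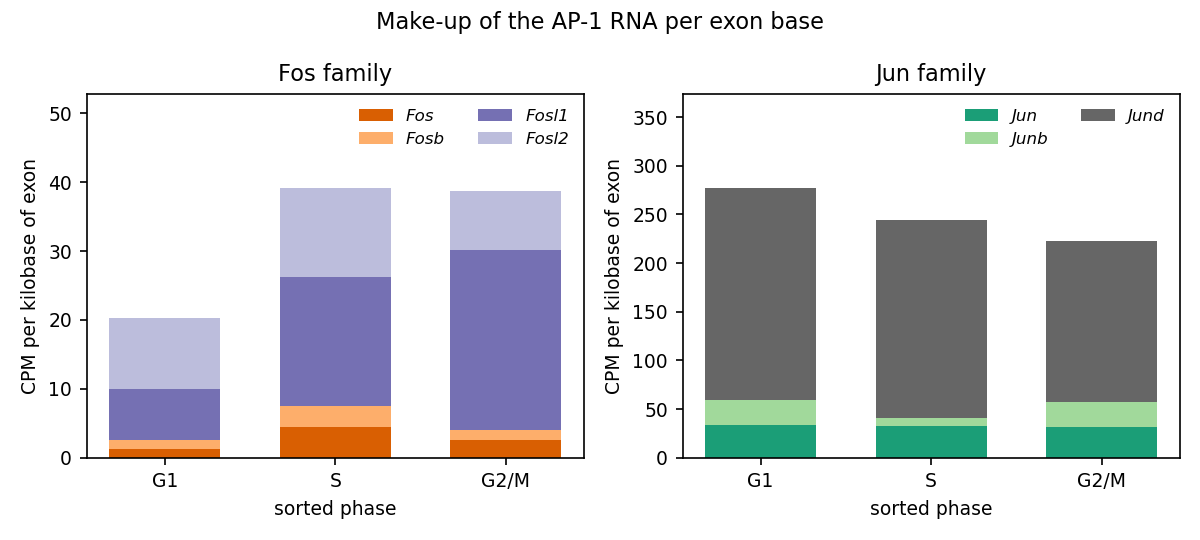
Stacked levels of the Fos genes (left) and the Jun genes (right) in CPM per kilobase of exon, by sorted phase, with both axes from 0 and of different scale. Fosl1 takes up a larger part of the Fos column from G1 over S to G2/M, and Jund takes up most of the Jun column in all 3 phases.

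Other bZIP factors share the dimer-forming zipper. Of 26 listed, 20 reached 10 CPM in S or G1, with 2 at least 2-fold higher (8.63% of all genes) and 1 at least 2-fold lower (8.59% of all genes) in S, and a median log2 ratio of 0.11. For G2/M over G1, 1 of 20 was at least 2-fold higher (10.03% of all genes) and 3 at least 2-fold lower (9.81%), with a median of 0.18. Between G2/M and S, 0 of 19 were 2-fold higher (7.12% of all genes) and 1 was 2-fold lower (6.60%), the small Maf gene Mafk, at 11.2 CPM in G2/M, against 31.4 CPM in S (log2 ratio -1.48, interval -1.65 to -1.32). The antioxidant factor Nfe2l2 stood at 81.2 CPM in G2/M, against 46.9 CPM in S, a log2 ratio of 0.79, and the repressor Nfil3 at 6.18 and 11.8 CPM, a log2 ratio of -0.93.

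Upstream of AP-1 stand kinase genes and SRF with its cofactors. Of 27 genes of the JNK, ERK and p38 pathways 20 reached the minimum. Between S and G1, 0 differed 2-fold (8.63% of all genes were higher and 8.59% lower). Between G2/M and S, 0 were 2-fold higher (7.12% of all genes). The 1 gene 2-fold lower there (6.60% of all genes) was the JNK pathway kinase Map3k11, at 5.27 and 16.7 CPM in G2/M and S. For G2/M over G1, 0 of 20 were 2-fold higher (10.03% of all genes) and 1 was 2-fold lower (9.81%). Mapk8, which encodes JNK1, stood at 59.9 CPM in G2/M, against 32.5 CPM in S (log2 ratio 0.88, interval 0.78 to 0.98). Map2k4, which activates JNK, stood at 37.6 and 60.1 CPM in G2/M and S, a log2 ratio of -0.68. Of the 6 SRF and cofactor genes 0 differed 2-fold in either comparison with S, for which the shares of all genes are given above. In G2/M over G1, 1 was at least 2-fold lower (9.81% of all genes). Srf itself, the serum response factor that drives Fos and other early genes, stood at 132.8 CPM in G2/M, against 227.7 CPM in S, a log2 ratio of -0.78 (interval -0.83 to -0.73), and at 227.7 and 231.2 CPM in S and G1. Its cofactor gene Mrtfb stood at 44.3 and 24.6 CPM in G2/M and S, and the ternary complex factor Elk3 at 194.0 and 149.9 CPM.

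Of 15 MAPK feedback inhibitor genes, 13 reached 10 CPM in S or G1. In S, 3 were at least 2-fold higher (8.63% of all genes) and 2 at least 2-fold lower (8.59%). Between G2/M and S, 0 of 12 differed 2-fold (7.12% of all genes were higher and 6.60% lower). The phosphatase gene Dusp16, whose product acts on JNK, stood at 68.7 CPM in S, against 28.3 CPM in G1 (log2 ratio 1.28), and Dusp8 at 20.5 and 7.98 CPM (log2 ratio 1.36). Spry2, an ERK pathway inhibitor gene, stood at 34.7 CPM in S, against 68.0 CPM in G1 (log2 ratio -0.97) and at 63.4 CPM in G2/M. Dusp1, an early gene itself, stood at 68.3, 78.6 and 69.1 CPM in G1, S and G2/M. Like Junb, Spry2 had its lowest level in S, with G1 and G2/M close to each other.

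Other immediate early genes give a setting for the members. Their list was chosen with earlier results of these data known, so the counts below describe these libraries only. Of 28 listed, 22 reached the minimum in S or G2/M, and all 22 of these had a log2 ratio of G2/M over S below 0, with a median of -0.63, against 0.01 for all genes. At least 2-fold lower were 4 of them, against 6.60% of all genes. For G2/M over G1, 17 of 21 were below 0, 4 of them at least 2-fold (9.81% of all genes), with a median of -0.44, against -0.003 for all genes. The share of all genes on each side of 0 was not counted in any comparison. Both comparisons share the G2/M library. Egr1, a serum-induced zinc finger factor, stood at 27.4 CPM in G2/M, against 94.96 CPM in S (log2 ratio -1.79), Zfp36, which speeds decay of AU-rich RNAs, at 4.99 and 17.8 CPM (-1.83), and Csrnp1 at 5.24 and 12.4 CPM (-1.25). Among the members, Fos at -0.81, Fosb at -1.08, Fosl2 at -0.61 and Jund at -0.30 had negative ratios of G2/M over S too, Jun at -0.04 and Atf3 at -0.01 stood near 0, and Junb at 1.57 and Fosl1 at 0.48 had positive ones. Between S and G1 the other early genes were split, 12 higher and 10 lower of 22, 1 of them at least 2-fold higher (8.63% of all genes).

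The remaining lists concern what acts on AP-1 RNA and protein and what AP-1 acts on. Of 14 genes of RNA decay and protein turnover 11 reached the minimum. In S over G1, 1 was 2-fold higher (8.63% of all genes) and 1 2-fold lower (8.59%). In G2/M over S, 1 was 2-fold higher (7.12% of all genes) and 1 2-fold lower (6.60%). Fbxw7, a ubiquitin ligase subunit with Jun among its substrates, stood at 49.7 CPM in S, against 20.4 CPM in G1, and the pseudokinase gene Trib1 at 9.93 and 28.8 CPM. In G2/M Trib1 stood at 20.1 CPM (log2 ratio over S of 1.02), and the gene 2-fold lower there was Zfp36, which is on both lists. Of 29 genes reported as AP-1 targets 22 reached the minimum in G2/M or S, with a median log2 ratio of -0.12 in G2/M over S. In G2/M, 2 of the 22 were at least 2-fold higher (7.12% of all genes), the metallothioneins Mt1 and Mt2. The growth factor Tgfb1 was the 1 gene at least 2-fold lower (6.60% of all genes). Mt1 stood at 30.8 CPM in G2/M, against 8.71 CPM in S, and Mt2 at 24.4 and 0.586 CPM. Tgfb1 stood at 36.3 CPM in G2/M, against 90.8 CPM in S.

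The genes with the most similar pattern to a member were taken by the distance between the pairs of log2 ratios (S over G1 and G2/M over S) over these 3 libraries, among named genes averaging 50 CPM or higher. Fos and Fosb, averaging 6.55 and 7.23 CPM, were left out because they lie under a mean of 10 CPM. For Junb the nearest was Efemp2, a fibulin of the extracellular matrix, at a distance of 0.10, and the next, the small heat shock gene Hspb8, was 0.54 away. For Fosl1 they were Sertad4 at 0.06 and Ckap2l, which encodes a spindle protein, at 0.09, and for Fosl2 Pgs1 at 0.02 and Atad3a at 0.03. For Jun and Jund the nearest genes lay within 0.02, in the dense middle of the distribution, namely Sept8 and Fhl1 for Jun and Psmc2 and Adrm1 for Jund. For Atf3 they were Stk35 at 0.03 and H13 at 0.06. With 3 libraries behind each pattern, such likeness describes these libraries only.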

How the data were processed

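The deposited values are counts of fragments per gene. The authors made them with featureCounts 1.5.0-p3 in its paired mode, summing exons by gene ID from an Ensembl file for GRCm38, per the file headers. Options for strand, for reads with several hits and for overlapping genes are absent from the recorded command. The deposited table also gives each gene's exon bases. Both reads had 101 cycles, per the labels' protocols, and the submitters' processing notes name HISAT2 2.1.0 and SAMtools 1.6 among the tools. ChIP-seq of the same fractions was not analysed here.

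Gene IDs were matched to symbols for 45143 of 46078 genes (98.0%). Counts between the 2 columns of a phase were compared by chi-square over genes whose pair summed to 10 fragments or higher (p = 0.450 for G1, 0.0109 for S, 3.11e-28 for the G2/M pair and 0.00229 there without Gm17082). These p-values compare columns, not conditions. Strictly, only G1 showed no difference, and S and G2/M exceeded counting noise by so little that each pair was still summed to 1 library. The titles call them replicates. With the sums used as 1 library per phase, no test between phases was made.

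CPM of the sums used TMM factors (edgeR 4.0.16, R 4.3.3), over 12971 genes with at least 10 fragments in 1 library (G1 0.990, S 1.00, G2/M 1.01). Counts under 3 were set to 3 in ratios, and a count of 0 allows up to 0.0936 CPM in G1, 0.0837 CPM in S, 0.0827 CPM in G2/M. Ratios have exact binomial and levels exact Poisson intervals, both at 95%. Since PCR copies of 1 molecule count repeatedly, all intervals and floors cover counting error only. The ratio code was tested on simulated counts. Members and 11 other gene lists were chosen with earlier results of these data known. Beside the members, 3 genes of each list were eligible to be named. They had the largest absolute log2 ratio of G2/M over S among genes reaching 10 CPM in 1 phase. Egr1, Srf, Mapk8 and Dusp1, and 2 genes of like pattern per member averaging 10 CPM or higher, were eligible too. Cell type markers were named outside this rule. Promoters are RefSeq's, GRCm38.p6. Alternatives were other scaling factors, other minimums, a 1.5-fold threshold, leaving out each column and shares without length.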

Additional observations from a re-analysis of the deposited data

How the results depend on the processing

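With the columns of a phase, titled as replicates, summed to 1 library, no difference here was tested against replicates, and whether the columns are biological replicates is not known. Among the members, Fos and Fosb had the fewest fragments and the widest counting intervals of their log2 ratios. No paired analysis was possible because the results come from no test. Other scaling moved the members' log2 ratios by at most 0.03, and leaving out 1 column by at most 0.17. The sign changed only for Junb between G2/M and G1, Fosb between G2/M and G1 and Atf3 between G2/M and S, all near 0. Leaving out 1 column put the members at least 2-fold lower at 1 to 2 (S over G1), at 0 to 1 (G2/M over S, where Fosb is lost without column 1 of G2/M) and at 0 to 1 (G2/M over G1).

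With no minimum level, 2 members passed 2-fold upward for G2/M over G1. Over all genes, 2407 were then at least 2-fold higher and 2004 lower (S over G1), 1789 higher and 2245 lower (G2/M over S), and 2223 higher and 2295 lower (G2/M over G1). With a minimum mean of 50 CPM, 0 members were 2-fold higher or lower in any of the comparisons, since Fos, Fosb, Fosl1, Junb and Atf3 lie under it, and the gene counts were 129 and 91, 40 and 58, and 160 and 114 in the same order. At 1.5-fold, 2 members were lower in S than in G1, 3 in G2/M than in S and 1 in G2/M than in G1, and the gene counts were 1625 and 1609, 1408 and 1349, and 1786 and 1735. Without division by length, Fosl1 held 10.3%, 17.9% and 32.5% of the Fos family in G1, S and G2/M, Fosl2 82.9%, 69.9% and 59.2%, and Jund 80.3% and 76.3% of the Jun family in G1 and G2/M.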
